A study of Mus musculus with 4 samples.

Results

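The genes described here encode the machinery of oxidative phosphorylation in the inner mitochondrial membrane. Members were chosen by gene symbol in the deposited expression table, and 93 of its 17039 genes matched: 39 complex I genes (symbols starting with Nduf, other than Ndufaf), 8 complex I assembly factors (Ndufaf), 4 complex II subunits (Sdha to Sdhd), 9 complex III genes (Uqcr and Cyc1), 16 complex IV genes (Cox4 to Cox8) and 17 complex V genes (Atp5). RNA was sequenced from T cells that were isolated from C57BL/6 spleens by magnetic sorting, and the series title calls them CD8+. In the AAV-IL-27 group 2 mice carried a recombinant adeno-associated virus that expresses interleukin-27 (IL-27), and in the AAV-ctrl group 2 mice carried a control recombinant virus. Both viruses were given into muscle about a month before, all mice were kept under specific-pathogen-free conditions, and the libraries of each group are replicates 1 and 3. The age and sex of the mice, the promoter that drives IL-27 and the purity of the sort are not given in the sources used here.

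The respiratory chain passes electrons from NADH (through complex I) and from succinate (through complex II) to ubiquinone, then through complex III and cytochrome c to complex IV, which reduces oxygen. Complexes I, III and IV pump protons, and complex V, the ATP synthase, uses the return flow of protons to make ATP. Most subunits are encoded in the nucleus and a few in mitochondrial DNA, and only nuclear genes are described here. T cells are known to build up mitochondria when they leave the resting state, and memory CD8+ T cells are known for a high respiratory capacity.

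Most nuclear subunit genes of complexes III, IV and V had a higher level in AAV-IL-27 mice, by small factors. Of the 88 members that passed the filter on low counts, 54 were higher, 1 was lower and 33 did not pass the test (edgeR, adjusted p under 0.05). For comparison, 21.3% of all 12887 tested genes were higher and 17.7% were lower. Among abundant genes, those with a mean log2 CPM (counts scaled to library size) of at least 5, 25.8% were higher, against 38 of the 53 members at that level. The median log2 fold change was 0.28 over the tested members and -0.0053 over all tested genes. No member rose by as much as a factor of 2, and 83 of the 88 lay above 0. In these bulk samples more cells of a type and more RNA per cell cannot be told apart.

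The complexes differed in how many of their genes passed. All 9 complex III genes rose (median log2 fold change 0.35), as did 10 of 12 tested complex IV genes (0.44) and 15 of 17 complex V genes (0.36). In complex I 18 of 38 tested genes rose (0.25), and in complex II 2 of 4 (0.31). None of the 8 Ndufaf assembly factors passed by edgeR (0.08), none had an unadjusted p under 0.05, and DESeq2 also called none. These are counts and medians, and a difference between complexes was not tested. The median log2 CPM was 4.82 in complex I, 6.0 in II, 5.93 in III, 6.15 in IV and 6.5 in V. The pass counts take no account of these levels. After scaling by TMM (edgeR's library factors) the groups overlapped in 9 tested members, none of which passed. The groups did not overlap in 79 of the 88 members, where 71.5% of all tested genes had groups that did not overlap.

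**Figure D1:**
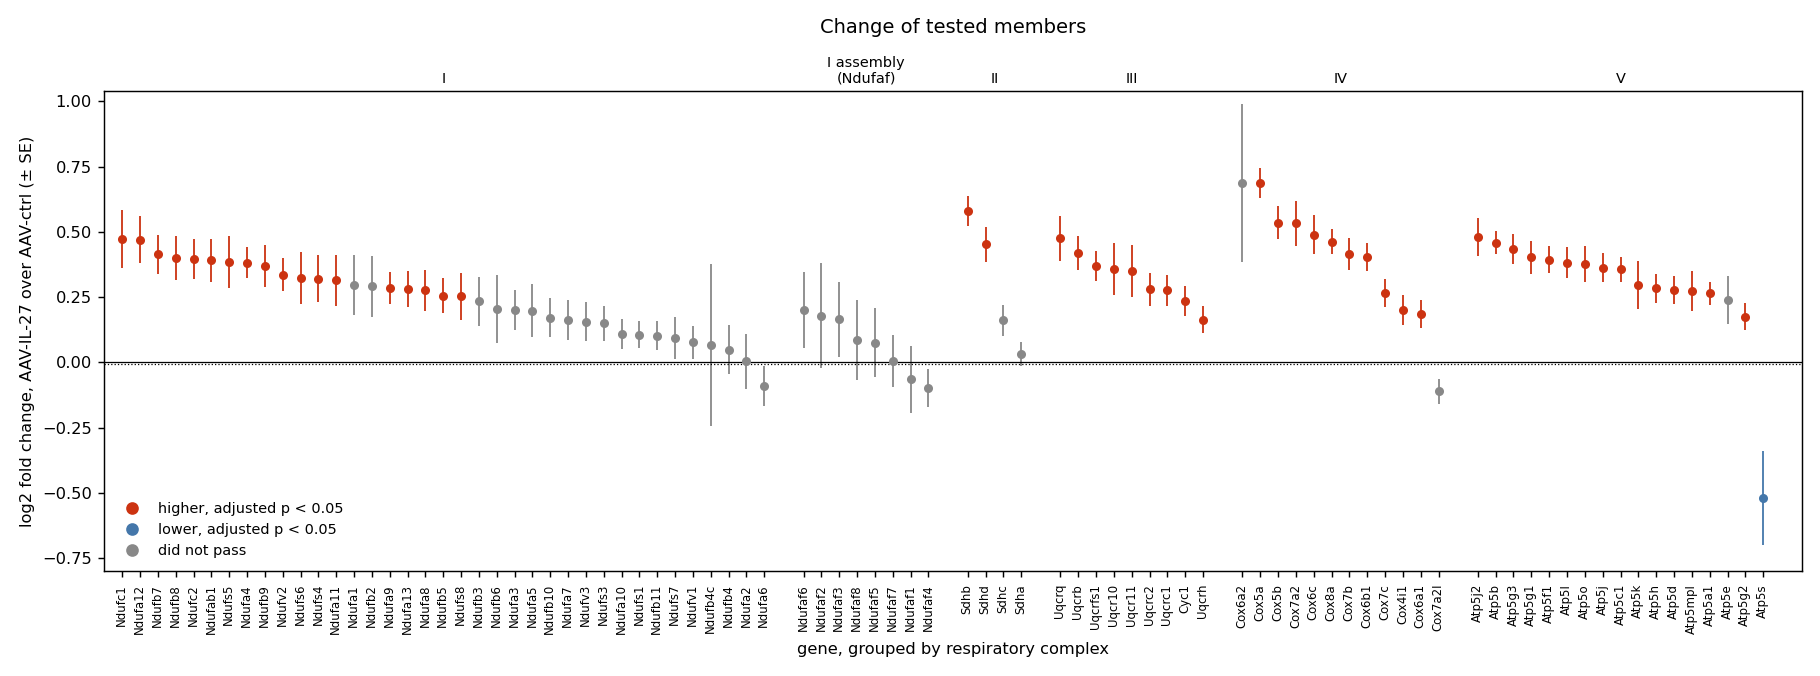
Log2 fold change of AAV-IL-27 over AAV-ctrl for the tested members, 1 of them not shown, sorted within each complex. Points are edgeR estimates from 2 libraries per group, bars are ± SE, and the dotted line is the median of all tested genes (-0.0053). All 9 complex III genes are red (higher), no Ndufaf gene is, and Atp5s is the member called lower.

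The members' summed shares were close between the libraries of a group. The members' summed counts made up 0.632% (replicate 1) and 0.622% (replicate 3) of all counts in AAV-IL-27, compared with 0.534% and 0.533% in AAV-ctrl. For complex V alone the shares were 0.265% and 0.257% against 0.214% and 0.210%, and for complex I 0.143% and 0.141% against 0.126% and 0.126%. The Ndufaf genes held 0.0101% and 0.0104% against 0.0102% and 0.0108%, so the groups overlapped in their sum. Within groups the median log2 ratio of replicate 3 over replicate 1 over the members was -0.02 in AAV-IL-27, with -0.005 in AAV-ctrl. Both are smaller in size than the median change of 0.28 between groups, but opposite deviations cancel in them. Single members ranged from -0.92 (Cox6a2) to 0.98 (Ndufb4c) in AAV-IL-27 and from -0.22 (Ndufb3) to 0.24 (Uqcr10) in AAV-ctrl.

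**Figure D2:**
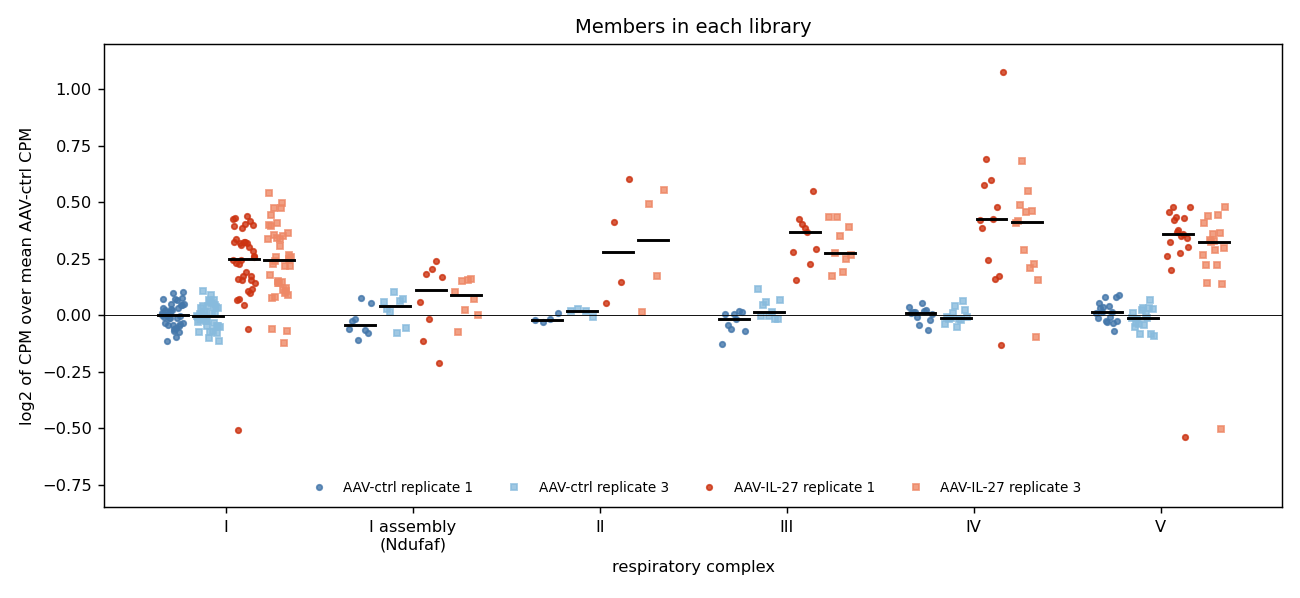
Each point is 1 tested member in 1 library, as the log2 of its CPM over its mean CPM in the AAV-ctrl libraries, and black bars are medians per library. The medians of both AAV-IL-27 libraries lie above those of both AAV-ctrl libraries in each of the 6 groups, least so for the Ndufaf genes (median log2 fold change 0.08).

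The number of calls depended on the control libraries and on the scaling. Without AAV-ctrl replicate 1, 29 of the 88 members were higher, where 12.5% of all tested genes were. Without AAV-ctrl replicate 3 the count was 35, where 12.8% of all tested genes were higher. DESeq2 called 36 of the members higher, against 15.6% of all genes. Scaled to a list of T cell genes, 8 members were higher (Atp5b, Atp5j2, Cox5a, Cox5b, Cox6c, Cox7a2, Cox8a and Sdhb), against 11.0% of all genes. That scaling moved the median of all genes from -0.005 to -0.155 and the median of the members from 0.279 to 0.128, so the members stayed 0.283 above the median of all genes, where they had been 0.284 above it. A shift of all genes together leaves that distance in place by construction. With the T cell list the SE also grew, for example from 0.0447 to 0.114 for Atp5b and from 0.057 to 0.126 for Cox5a. Over all genes the split of calls into 2745 higher and 2278 lower became 2362 and 2979 with upper-quartile factors and 1418 and 3013 with the T cell list.

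**Figure D3:**
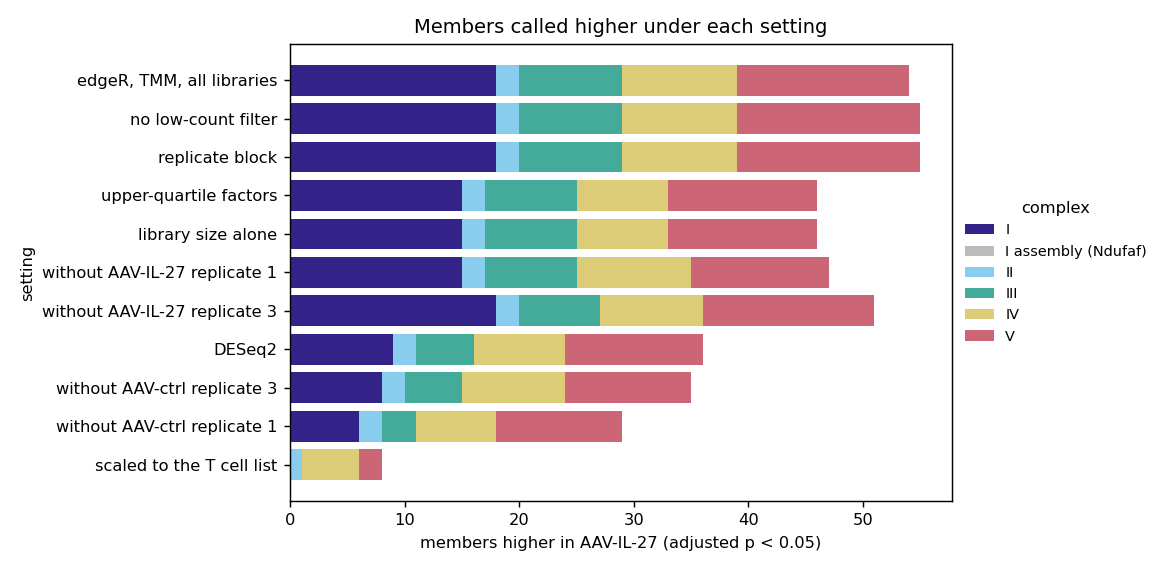
Number of members called higher in AAV-IL-27 (adjusted p under 0.05) under each setting, stacked by complex. The bar is 54 with edgeR, TMM and all libraries, 29 without AAV-ctrl replicate 1 and 8 when scaled to the T cell list, where no complex I or III gene is left.

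Markers of other cell types were detected, and those of several types differed between the groups. All 16 T cell and CD8 markers were detected in every library, with a median of 180 FPKM in each AAV-ctrl library and 192 and 219 FPKM in AAV-IL-27 (FPKM, counts per length and library size). Of these 16 markers, which are also the list used for the T cell scaling, 8 rose and 2 fell, with a median log2 fold change of 0.20. Of 15 neutrophil markers 14 rose, and their summed share of the counts was 0.0928% and 0.154% in AAV-IL-27 against 0.0028% and 0.00189% in AAV-ctrl, where Fcnb and Prtn3 had no count in replicate 3. B cell markers held 0.193% and 0.264% in AAV-IL-27, compared with 0.411% and 0.366% in AAV-ctrl, with 5 of 10 lower, and none of the 10 was at 0 in any library. Of 10 natural killer markers 7 fell (Ncr1, Klrb1c, Klra4, Klra8, Klra9, Klre1 and Klri2) and 3 rose (Gzma, Nkg7 and Klrk1). Their summed share was 0.0722% and 0.0663% in AAV-IL-27 against 0.0461% and 0.0445% in AAV-ctrl. Of 12 macrophage markers 7 fell and 1 rose, with 0.0146% and 0.0159% in AAV-IL-27 against 0.0434% and 0.0276% in AAV-ctrl. Of 8 tested erythroid markers 1 rose, and the summed shares of the erythroid list overlapped between the groups. All 20 cell cycle genes rose (median log2 fold change 1.85). Between the AAV-IL-27 libraries all 15 neutrophil markers were higher in replicate 3 (median log2 ratio 0.84) and none of the 16 T cell markers was (-0.19), while 37 of the 88 members were. The part of these lists in the members' change between groups was not tested.

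**Figure D4:**
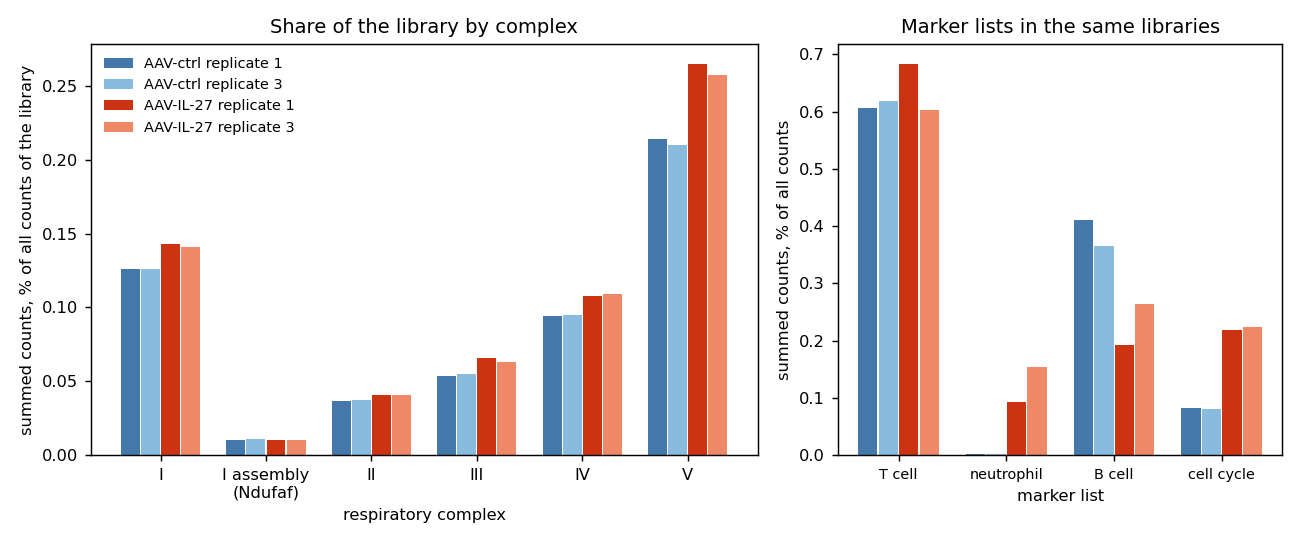
Summed counts of each complex (left) and of 4 marker lists (right) as a percentage of all counts of the library, 1 bar per library. Complex V holds 0.257% to 0.265% in AAV-IL-27 and 0.210% to 0.214% in AAV-ctrl, while the neutrophil list goes from at most 0.0028% to at least 0.0928%.

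The members lie on 19 chromosomes, with Ndufa1, Ndufb11 and Cox7b on the X chromosome, so they are spread over the genome. Their promoters were compared because nuclear respiratory genes are known to be controlled by the transcription factors NRF1, GABP (also called NRF2, of the ETS family) and YY1. RefSeq promoter windows on GRCm38.p6, 250 bases before to 50 bases after the start, were matched by gene number for 75 of the 93 members. The NRF1 letters GCGCATGCG were found on either strand in 10 of 75 members, and in 1.75% of all 32851 promoter windows. The GABP letters CCGGAAGT were in 5 of 75 members and 3.89% of all windows, and the YY1 letters AAGATGGCG in 8 of 75 and 1.40%. At least 1 of these strings was in 22 of the 75 members, against 6.69% of all windows. The NRF1 string is almost its own reverse complement, so that a site often matches on both strands, and each window was counted once. Several members have more than 1 window, which gave 80 windows in all, of which 10 (NRF1), 5 (GABP) and 8 (YY1) held the strings. A match describes letters and no binding was measured.

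The strings were found in members that rose and in members that did not pass. Of 45 higher members with a window 8 held the NRF1 letters, 4 the GABP letters and 6 the YY1 letters, and of 27 tested members that were not higher these numbers were 2, 1 and 2. The 100 bases before the start are printed for the member with the smallest p, Cox5a, whose window held none of the strings, and for 1 NRF1 or GABP match each of complexes I, III and V, 2 for V. The RefSeq start behind the Cox5a window lies inside the gene span given with its values, which begins further upstream. Capitals mark matches, and in Uqcr11 the run in capitals at the end is the part of an NRF1 match that crosses the start. Positions are on GRCm38.p6: Cox5a chr9:57521132-57521231 (+), Ndufa11 chr17:56717662-56717761 (+), Uqcr11 chr10:80406822-80406921 (-), Atp5g2 chr15:102671048-102671147 (-) and Atp5h chr11:115419920-115420019 (-).
Cox5a: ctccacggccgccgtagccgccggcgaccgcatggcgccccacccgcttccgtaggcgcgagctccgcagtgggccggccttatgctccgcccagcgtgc
Ndufa11: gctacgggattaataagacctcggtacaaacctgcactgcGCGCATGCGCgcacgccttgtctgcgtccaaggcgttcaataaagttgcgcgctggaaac
Uqcr11: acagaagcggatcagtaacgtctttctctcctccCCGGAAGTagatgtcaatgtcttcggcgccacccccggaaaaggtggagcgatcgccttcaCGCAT
Atp5g2: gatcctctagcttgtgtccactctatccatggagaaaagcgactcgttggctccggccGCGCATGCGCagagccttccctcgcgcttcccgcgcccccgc
Atp5h: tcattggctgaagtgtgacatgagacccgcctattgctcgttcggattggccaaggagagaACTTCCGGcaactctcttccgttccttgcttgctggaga

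Most YY1 matches in the members shared a direction and a place. All 8 matches ran in the direction of the gene and 7 of them lay within the 50 bases after the start. Over all promoter windows 209 of 477 matches (43.8%) had both that direction and that place. The string contains ATG, the letters of a start codon, and matches at coding starts were not told apart from others. The members were Ndufa9, Ndufc1, Ndufs4, Ndufs6, Ndufs7, Ndufaf8, Atp5j2 and Atp5j, the last with its match 88 to 80 bases before the start. To show the shared place of the string, 30 bases around it are printed for 3 members that rose: Atp5j2 chr5:145191499-145191528 (-), Ndufs4 chr13:114388045-114388074 (-) and Ndufc1 chr3:51408914-51408943 (-), all on GRCm38.p6.
Atp5j2: ccaggacttcAAGATGGCGtcactcggtga
Ndufs4: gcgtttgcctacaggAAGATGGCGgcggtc
Ndufc1: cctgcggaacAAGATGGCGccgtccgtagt

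Complex I oxidises NADH in a matrix arm and pumps protons in a membrane arm, and its nuclear genes divided. Of the 7 core subunits, which carry the flavin and the iron-sulphur centres, 2 rose (Ndufv2 and Ndufs8), not far from the 21.3% of all tested genes. Of the 31 other tested genes, called accessory here, 16 rose. They include Ndufa4, now placed in complex IV, and Ndufb4c, neither of which was given a position below. The Ndufs8 call was lost under each other scaling, by DESeq2 and when any library other than AAV-IL-27 replicate 3 was left out. The median log2 fold change was 0.14 for the core and 0.28 for the accessory genes. By position in the enzyme, 4 of 10 genes of the NADH-oxidising module rose, 2 of 6 of the ubiquinone-reducing module, 6 of 9 of the proximal membrane arm and 5 of 11 of the distal membrane arm. The 18 that rose and the 20 that did not pass had similar levels (median log2 CPM 4.82 and 4.95) and similar errors (median SE 0.081 and 0.078).

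Ndufv1 (NCBI Gene 17995, chromosome 19, 4007499 to 4012755), which binds NADH and the flavin, stood at 28.4 and 28.5 FPKM in the AAV-IL-27 libraries (replicate 1, then 3, as for all genes) and at 28.0 and 27.9 FPKM in the controls. Its log2 fold change was 0.08 ± 0.064 (SE, adjusted p = 0.375). Ndufs1, which carries more of the iron-sulphur centres than any other subunit, had 28.9 and 29.2 FPKM against 27.5 and 28.1 (0.11 ± 0.053, adjusted p = 0.139). For these subunits the groups did not overlap, but the gap between groups was small and neither passed. Ndufs7, which carries the last iron-sulphur centre before ubiquinone, had 35.0 and 37.2 FPKM against 34.0 and 36.0, and its groups overlapped in FPKM (0.09 ± 0.081, adjusted p = 0.391). The log2 fold changes of Ndufv1, Ndufs1 and Ndufs7 were below 0 when scaled to the T cell list.

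Ndufa4 had the smallest p among the genes named for complex I, with 171 and 160.5 FPKM in AAV-IL-27 against 132 and 131 in AAV-ctrl (0.38 ± 0.059, adjusted p = 0.000933). Its protein was first assigned to complex I and is now placed in complex IV. Counted there, 11 of 13 tested complex IV genes and 17 of 37 complex I genes rose. Its paralogue Ndufa4l2, which low oxygen is known to induce, had 4 and 3 counts in AAV-IL-27 against 0 and 1 in AAV-ctrl, too few for a test.

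Among accessory subunits Ndufa12 had 51.2 and 53.2 FPKM in AAV-IL-27 against 36.6 and 41.4 in AAV-ctrl (0.47 ± 0.089, adjusted p = 0.00297). Ndufb7, of the distal membrane arm, had 64.6 and 63.2 FPKM against 49.6 and 49.8 (0.41 ± 0.074, adjusted p = 0.0022). Both libraries of AAV-IL-27 lay above both of AAV-ctrl for these genes. Ndufv2, an iron-sulphur subunit of the NADH-oxidising tip, had 43.0 and 43.9 FPKM against 34.3 and 37.0 (0.34 ± 0.063, adjusted p = 0.00288). The call was lost when AAV-ctrl replicate 1 was left out (adjusted p = 0.0521). The other 14 higher complex I genes had log2 fold changes of 0.25 to 0.47, from Ndufs8 (adjusted p = 0.0498) to Ndufc1. Ndufa2 was the complex I gene nearest to no change, with 26.3 and 24.0 FPKM against 26.1 and 25.9 (0.0042 ± 0.11, adjusted p = 0.98). Ndufa6 had 64.9 and 62.2 FPKM against 73.3 and 66.8 (-0.09 ± 0.077, adjusted p = 0.387), the other tested complex I genes all having estimates above 0. Ndufb4c may share reads with Ndufb4 and is uncertain.

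The Ndufaf proteins help to build complex I and do not stay in it. Their FPKM ranged from 5.72 to 17.7 over all libraries, and their log2 fold changes from -0.10 (Ndufaf4) to 0.20 (Ndufaf6). Ndufaf6 had the smallest p of the group, with 7.25 and 6.96 FPKM in AAV-IL-27 against 6.26 and 6.61 in AAV-ctrl (0.20 ± 0.15, adjusted p = 0.31). Ndufaf4 had 8.35 and 8.58 FPKM against 9.22 and 9.53 (-0.10 ± 0.072, adjusted p = 0.319), and Ndufaf7 had 10.7 and 10.9 against 10.6 and 12.3 (0.0046 ± 0.10, adjusted p = 0.978). Their median SE was 0.138, larger than in the other groups of Nduf genes, at a median log2 CPM of 3.18. Beyond Ndufaf, none of 8 further complex I assembly genes passed (median -0.04), with Tmem186 at -0.22 ± 0.088 (adjusted p = 0.0785) and Acad9 at -0.13 ± 0.058 (adjusted p = 0.099).

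Complex II links the tricarboxylic acid cycle to the chain, and its 4 genes did not change alike. Sdhb (NCBI Gene 67680, chromosome 4, 140961271 to 140979198), the iron-sulphur subunit, had 75.7 and 73.1 FPKM in AAV-IL-27 against 51.8 and 51.1 in AAV-ctrl (0.58 ± 0.057, adjusted p = 6.55e-05). Sdhd, a membrane anchor with the ubiquinone site, had 38.3 and 40.4 FPKM against 29.2 and 30.4 (0.45 ± 0.068, adjusted p = 0.000846). For both genes the AAV-IL-27 libraries lay clear of the AAV-ctrl libraries. Sdhc, the other anchor, had 56.3 and 56.9 FPKM against 51.1 and 51.8 (0.16 ± 0.058, adjusted p = 0.0536), without overlap but short of the threshold. Sdha, the flavoprotein that oxidises succinate, had 76.2 and 74.2 FPKM against 75.2 and 77.1 (0.03 ± 0.047, adjusted p = 0.633), and its groups overlapped. Sdha and Sdhb thus stood nearly level in AAV-IL-27 in FPKM, while in AAV-ctrl Sdhb was the lower. Of 4 complex II assembly genes Sdhaf4 rose (0.57 ± 0.18, adjusted p = 0.0281) and Sdhaf1 fell (-0.33 ± 0.11, adjusted p = 0.0404). Each is 1 gene of 4, not far from the 21.3% of all tested genes that rose and the 17.7% that fell.

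In complex III, which passes electrons from ubiquinol to cytochrome c, the catalytic and the accessory subunits rose together. Uqcrfs1, the Rieske iron-sulphur protein, had 54.6 and 53.2 FPKM in AAV-IL-27 against 43.5 and 43.1 in AAV-ctrl (0.37 ± 0.058, adjusted p = 0.00101). Cyc1, cytochrome c1, had 53.3 and 54.2 FPKM against 47.9 and 46.7 (0.24 ± 0.059, adjusted p = 0.0118). The core protein gene Uqcrc1 had 64.3 and 62.9 FPKM against 51.8 and 56.9 (0.28 ± 0.059, adjusted p = 0.00547). In all of these the AAV-IL-27 libraries were the higher. Uqcrb, a small ubiquinone-binding protein, had 142 and 145 FPKM against 107 and 116 (0.42 ± 0.065, adjusted p = 0.000924), and Uqcrq had 21.02 and 18.9 against 15.04 and 14.64 (0.48 ± 0.086, adjusted p = 0.00224). Uqcrh, the hinge protein, had 176 and 177 FPKM against 164 and 163 and was nearest to no change (0.16 ± 0.051, adjusted p = 0.0298). Its call was lost by DESeq2 (adjusted p = 0.202), with upper-quartile factors (0.105) and with library size alone (0.102), and without AAV-IL-27 replicate 3 (0.06), AAV-ctrl replicate 1 (0.161) or AAV-ctrl replicate 3 (0.172). The remaining Uqcrc2, Uqcr10 and Uqcr11 were at 0.28, 0.36 and 0.35. Without AAV-ctrl replicate 1 only 3 of the 9 passed, and without AAV-ctrl replicate 3 5 did. Cyc1 passed in neither case (adjusted p = 0.0735 and 0.104) nor by DESeq2 (0.0966), and Uqcrc1 failed without replicate 1 (adjusted p = 0.0878). Of 6 complex III assembly genes none passed by edgeR, with Lyrm7 at -0.59 ± 0.21 (adjusted p = 0.0521) and Uqcc2 at 0.23 ± 0.13 (adjusted p = 0.181).

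Complex IV held the member with the smallest p of all. Cox5a (NCBI Gene 12858, chromosome 9, 57517328 to 57532427), a nuclear subunit on the matrix side, had 117 FPKM in both libraries of AAV-IL-27 against 76.2 and 74.7 in AAV-ctrl (0.69 ± 0.057, 1.61-fold, adjusted p = 2.13e-05). Its neighbour in the enzyme, Cox5b, had 132 and 124 FPKM against 92.5 and 90.5 (0.54 ± 0.062, adjusted p = 0.00018). Cox8a had 271 and 267 FPKM against 205 and 199 (0.46 ± 0.049, adjusted p = 9.88e-05), and Cox6b1 had 180.1 and 184 against 143 and 142 (0.40 ± 0.053, adjusted p = 0.000377). In these 4 genes the lowest AAV-IL-27 library was well above the highest AAV-ctrl library. Cox4i1, through which ATP is known to inhibit the enzyme, moved less, with 193 and 197 FPKM against 169 and 181 (0.20 ± 0.057, adjusted p = 0.0218). Its call was lost when either AAV-ctrl replicate 1 (adjusted p = 0.228) was left out, or replicate 3 of AAV-IL-27 (adjusted p = 0.0739), and also with upper-quartile factors (0.0601), library size alone (0.0618) and DESeq2 (0.0779).

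Several complex IV subunits exist as a widespread form and a form restricted to tissues such as muscle, lung or testis. The widespread forms Cox4i1, Cox6a1, Cox6b1, Cox7a2 and Cox8a all rose. Cox7a2 had 46.2 and 41.8 FPKM against 30.6 and 32.4 (0.53 ± 0.085, adjusted p = 0.0011). Cox6a1 had 183 and 189 FPKM against 171 and 167 (0.19 ± 0.052, adjusted p = 0.0204). Its call was lost when AAV-ctrl replicate 1 (adjusted p = 0.106), AAV-ctrl replicate 3 (0.162) or AAV-IL-27 replicate 3 (0.0569) was left out, and also with upper-quartile factors (0.0686), library size alone (0.0658) and DESeq2 (0.139). Of the restricted forms Cox4i2, Cox6b2, Cox7a1 and Cox8b had at most 9 counts in any library and were not tested. Cox6a2, the muscle form, was tested, with 12.7 FPKM in replicate 1 of AAV-IL-27, 6.78 FPKM in its replicate 3, and 6.29 and 6.22 FPKM in the controls (0.69 ± 0.30, adjusted p = 0.112). AAV-IL-27 replicate 1 alone stood apart, and without replicate 3 the gene passed (log2 fold change 1.07, adjusted p = 0.00326). Its exons overlap those of Itgad on the opposite strand, and reads of the 2 genes cannot be told apart without strand.

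Cox7a2l, whose protein is also called SCAF1, is a relative of Cox7a2. It had 226 and 232 FPKM in AAV-IL-27 against 252 and 259 in AAV-ctrl, so that it was the lower in both AAV-IL-27 libraries while Cox7a2 was the higher. The log2 fold change was -0.11 ± 0.047 (adjusted p = 0.0926). With upper-quartile factors it was -0.16 (adjusted p = 0.0216) and with library size alone -0.16 (adjusted p = 0.0227), both past the threshold. Per length Cox7a2l stood above Cox7a2 in every library.

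Of 21 tested complex IV assembly genes 5 rose and 0 fell, a share of higher genes near the 21.3% of all tested genes. The 5 were Cmc2 (0.72 ± 0.14, adjusted p = 0.00342), Cmc1 (0.46 ± 0.096, adjusted p = 0.0049), Cox17, which delivers copper, Surf1 and Coa5. Their list had a median of 0.11, below the 0.44 of the complex IV subunits. The last 3 were named after their values were seen.

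In complex V nearly every subunit gene rose, in the catalytic head as in the stalks and the membrane ring. Atp5b (NCBI Gene 11947, chromosome 10, 128083307 to 128090388), the catalytic beta subunit, had 395 and 384 FPKM in AAV-IL-27 against 297 and 290.2 in AAV-ctrl (0.46 ± 0.045, adjusted p = 6.16e-05), the highest FPKM of all members in every library. Atp5a1, the alpha subunit that alternates with beta in the head, had 216 FPKM in each AAV-IL-27 library against 188 and 185 (0.26 ± 0.044, adjusted p = 0.00146). Atp5c1, the gamma subunit of the central stalk, had 184 and 178 FPKM against 143 and 149 (0.36 ± 0.049, adjusted p = 0.000502). Of the 5 head and central stalk genes 4 rose, and Atp5e, the epsilon subunit, did not pass (0.24 ± 0.093, adjusted p = 0.0699). All 4 peripheral stalk genes rose, among them Atp5f1 with 108 and 103 FPKM against 81.1 and 84.9 (0.39 ± 0.051, adjusted p = 0.000349). The 4 small membrane subunits Atp5j2, Atp5k, Atp5l and Atp5mpl also rose, by 0.27 to 0.48. The Atp5k and Atp5mpl calls were lost by DESeq2, and the Atp5k call also with upper-quartile factors and library size alone. Leaving out any single library also lost the Atp5k call, and leaving out any other than AAV-IL-27 replicate 3 lost the Atp5mpl call. With the T cell list only Atp5j2 of these 4 kept its call.

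The proton-driven ring is made of copies of the c subunit, for which Atp5g1, Atp5g2 and Atp5g3 encode the same mature protein behind different targeting peptides. Atp5g1 had 76.1 and 80.7 FPKM in AAV-IL-27 against 62.0 and 60.9 in AAV-ctrl (0.40 ± 0.064, adjusted p = 0.00108). Atp5g3 had 109 and 105 FPKM against 81.4 and 82.5 (0.43 ± 0.057, adjusted p = 0.000394). Atp5g2 had 201 and 193 FPKM against 184 and 177, the highest level of the 3 in every library and the smallest estimate (0.18 ± 0.052, adjusted p = 0.0242). The Atp5g2 call was lost when any library other than replicate 3 of AAV-IL-27 was left out (adjusted p = 0.0686 without replicate 1 of AAV-IL-27, and 0.097 and 0.2 without replicates 1 and 3 of the controls). It was also lost by DESeq2 (adjusted p = 0.127), with upper-quartile factors (0.081) and with library size alone (0.0797). Whether the 3 estimates differ was not tested.

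**Figure D5:**
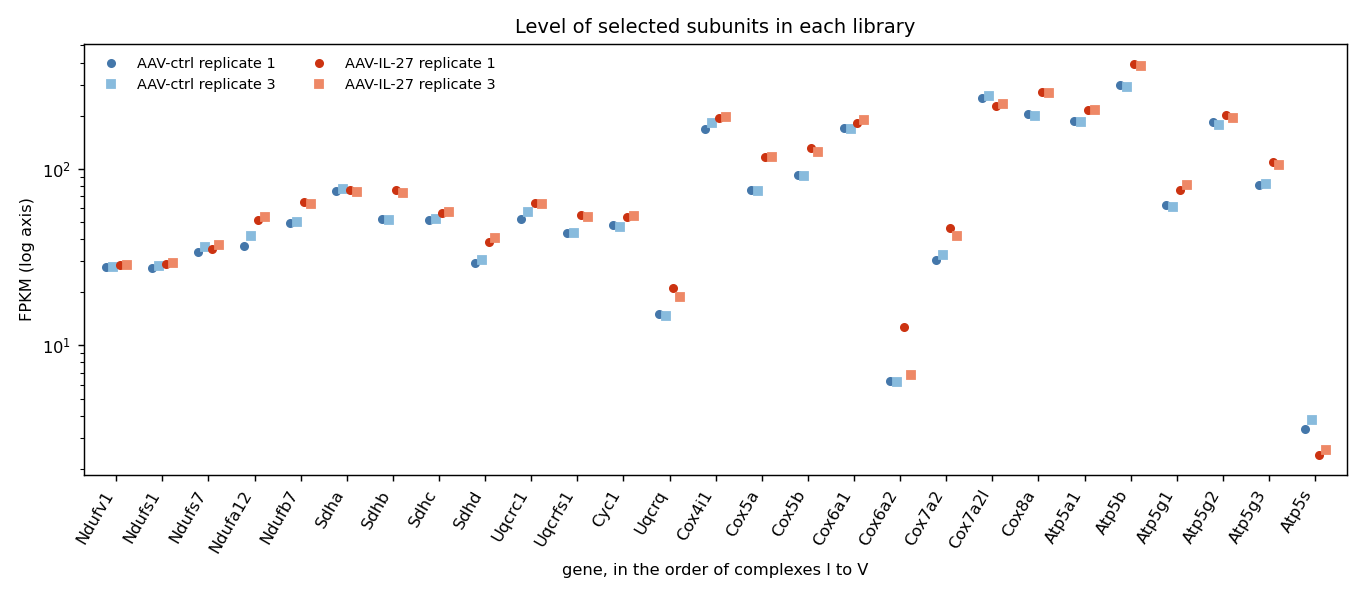
FPKM (log axis) of selected members in each of the 4 libraries, ordered by complex. Cox5a goes from 74.7 to 76.2 FPKM in AAV-ctrl to 117 in AAV-IL-27, Sdha stays between 74.2 and 77.1, Cox7a2l is lower in both AAV-IL-27 libraries, and Cox6a2 is high in AAV-IL-27 replicate 1 alone.

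Atp5s was the member called lower. RefSeq lists its gene number as Dmac2l, and its protein is known as coupling factor B and is not counted among the structural subunits. It had 2.38 and 2.57 FPKM in AAV-IL-27 against 3.38 and 3.80 in AAV-ctrl, or 69 to 106 counts per library (-0.52 ± 0.18, adjusted p = 0.0461). The call was lost without any single library, with adjusted p = 0.097 and 0.075 when replicates 1 and 3 of AAV-IL-27 were left out and 0.137 and 0.242 for those of AAV-ctrl, and it was lost by DESeq2 (adjusted p = 0.268). Left out of complex V, 15 of 16 genes rose. Atpif1, which encodes the inhibitor of the ATP synthase, rose, from 15.7 and 16.3 FPKM to 27.7 and 25.0 (0.77 ± 0.082, adjusted p = 0.000104). The other 3 genes of that list, which are assembly factors, did not pass.

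Genes that serve the chain were examined by lists. Of 7 genes for cytochrome c, the adenine nucleotide and phosphate carriers and the outer membrane channels, 6 rose (median 0.40). Cycs, the mobile electron carrier between complexes III and IV, had 44.2 and 45.0 FPKM in AAV-IL-27 against 28.6 and 30.4 in AAV-ctrl (0.65 ± 0.053, adjusted p = 1.93e-05). Slc25a5, an exchanger of ADP and ATP, rose by 0.53 ± 0.047 (adjusted p = 3.15e-05). Of 13 tricarboxylic acid cycle genes outside complex II 6 rose and 0 fell (median 0.16), beside the same shares of all tested genes. Among them Idh3a was at 0.60 ± 0.071 (adjusted p = 0.000208) and Mdh2 at 0.33 ± 0.046 (adjusted p = 0.000548).

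Lists of ubiquinone synthesis and of mitochondrial gene expression had few genes that rose. Of 13 coenzyme Q synthesis genes none rose and 2 fell (median -0.05), where 21.3% of all tested genes rose and 17.7% fell. The 2 that fell were Coq8a at -0.43 ± 0.086 (adjusted p = 0.00399) and Coq8b at -0.23 ± 0.08 (adjusted p = 0.0496). Of 19 genes of mitochondrial DNA expression and biogenesis 1 rose, against the same 21.3%, and 3 fell (median -0.06), near the same 17.7%. The rise was in Ppargc1b, a coactivator of respiratory gene transcription (0.51 ± 0.096, adjusted p = 0.00283), and Polg2, an accessory subunit of the mitochondrial DNA polymerase, was at -0.68 ± 0.15 (adjusted p = 0.00708). The other 2 that fell were Polrmt, the mitochondrial RNA polymerase, and Pprc1, named after their values were seen. The factors whose letters were searched in the promoters did not pass, with Nrf1 at 0.06 ± 0.064 (adjusted p = 0.509), Gabpa at 0.02 ± 0.051 (adjusted p = 0.74) and Yy1 at -0.07 ± 0.049 (adjusted p = 0.296).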

How the data were processed

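Expected counts per gene were deposited by the authors for 17039 genes in 4 libraries, and 64.9% to 65.1% of them are whole numbers. A second set of deposited columns was taken as FPKM, since value over count shifted between libraries by the same factor as the totals (1.0234 and 1.0232 over 3706 genes for AAV-ctrl replicate 3 against AAV-IL-27 replicate 1). Its header names no unit. The submitters' processing notes list RSEM 1.2.12, HISAT2 2.0.4, DESeq2 1.4.5, Bowtie2 2.2.5 and the build GRCm38.p6, without roles. No source used here says if strand was counted. Exons of 23 members overlap those of another gene in the table (GENCODE M21), 1 of them on the same strand, and small subunit genes are known to have pseudogene copies that may share reads.

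Counts were rounded. Totals ran from 15742523 to 16182453 per library, which sets the precision of low genes. Genes passed filterByExpr (12887 of 17039), were scaled by TMM and tested with edgeR 4.0.16 in R 4.3.3 (robust quasi-likelihood test, two-sided). P-values were Benjamini-Hochberg adjusted over the whole tested table, with a threshold of 0.05. The SE is the log2 fold change divided by the square root of F. A positive value means higher in AAV-IL-27. The fit was tested on simulated data. Alternatives were DESeq2 1.42.0, other scalings, no filter, a replicate block and leaving out each library.

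The 4 libraries come from 4 mice, per the design text. Members, lists and alternatives were chosen with earlier results of these data known. Named were members called lower, those with the smallest p in each group (4 each in complexes I, III, IV and V, and 2 Ndufaf), all of complex II, signature subunits, isoform pairs, the member nearest to no change in each group, untested members, and 2 genes of each other list. Mitochondrially encoded subunits were not analysed here. A member that this rule names enters the counts but is not reported here.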

Additional observations from a re-analysis of the deposited data

How the results depend on the processing

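Results rest on 2 libraries per group, and members with few counts were limited by depth. The count of 54 higher members was 55 with the replicate block, 55 without the filter and 46 with either upper-quartile factors or library size alone, and 8 with the T cell list. It ranged from 29 to 51 when 1 library was left out. The lone library of that group is then assumed to vary like the others. By complex, DESeq2 called 9 genes of complex I and 5 of complex III, and the T cell list left 0 of complex I, 1 of complex II, 0 of complex III, 5 of complex IV and 2 of complex V. Leaving out 1 library gave 6 to 18 for complex I, 2 to 2 for complex II, 3 to 8 for complex III, 7 to 10 for complex IV and 11 to 15 for complex V. The 1 lower member became 2 with upper-quartile factors and 2 with library size alone, and 0 with the replicate block, with DESeq2 (no member below 0 passed) and without any single library. Of the 54 calls 26 held under every setting other than the T cell list, and 8 under that as well. The replicate numbers are labels only, and same-numbered libraries did not deviate together (correlation -0.000711). With the block the 54 calls were kept and Atp5s was lost (adjusted p = 0.061).

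Estimates near 0 changed sign without passing. Ndufa2 was at -0.0465 with upper-quartile factors, -0.0458 with library size alone, -0.1485 with the T cell list and, with 1 library left out, from -0.0605 (without AAV-IL-27 replicate 1) to 0.0664. Ndufaf7 was at -0.0459, -0.0454 and -0.1434 under the same scalings, -0.0171 without AAV-IL-27 replicate 3, and from -0.0966 (without AAV-ctrl replicate 1) to 0.1109 over the libraries left out. Sdha was at -0.0186, -0.0180 and -0.1176 under those scalings. With the T cell list Ndufs1 was at -0.0423, Ndufs7 at -0.0522 and Ndufv1 at -0.0725. The cause of these shifts was not tested. Of the other comparisons of a named member with an alternative, 308 kept direction and side of the threshold, 54 lost the call and 3 gained it.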
